A study of Mus musculus with 16 samples.

Results

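Hedgehog signaling was examined through 8 genes chosen by name: Shh, Ptch1, Hhip, Smo, Sufu, Gli1, Gli2 and Gli3. They are 8 of the 27179 gene identifiers in the count table. RNA was sequenced from epidermal cells of 8 aged C57BL/6J mice, 4 that had received a control IgG and 4 that had received neutralizing antibodies to the cytokine pair IL-17A/F, the anti-IL-17A/F group. In both groups treatment began at 73 weeks of age and consisted of intraperitoneal injections 3 times a week for 12 weeks, so the control mice also carried an antibody and no untreated or young mouse is part of the comparison. Epidermis was scraped from whole-torso skin after dispase treatment, and each mouse was a separate sample. The study used mostly female mice. The comparison asks what IL-17A/F blockade does to the aged epidermis.

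Hedgehog ligands such as Sonic hedgehog bind the receptor Patched1, which otherwise holds back Smoothened at the primary cilium. Once Smoothened is free, the Gli transcription factors are released from Sufu, and Gli1 and Ptch1 are themselves transcribed in response, so their RNA is commonly read as a gauge of the pathway. In skin the pathway is known for the growth of the hair follicle and for its unchecked activity in basal cell carcinoma.

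The totals ran from 42816157 to 53721153 counts per mouse. Levels are given as CPM, in which counts are scaled to a common library size with TMM factors. The label of epidermal cells was checked against keratinocyte markers. Basal keratinocyte markers (Krt5, Krt14 and 4 others) summed to 15839 to 19761 CPM and suprabasal markers (Krt1, Krt10 and 4 others) to 17195 to 21961 CPM per mouse. Dermal papilla markers, from cells at the base of the follicle that respond to Hedgehog ligand, summed to 20.4 to 32.3 CPM. Most of this sum came from Rspo3 (mean 15.1 CPM) and Prdm1 (7.41 CPM), with Alpl at 1.27 CPM, whereas Corin, Alx4, Sox2, Sox18, Hey2 and Fgf7 each averaged under 1 CPM. Because the libraries hold many cells each, fewer cells of a type and less RNA per cell cannot be told apart.

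Reads of 50 bases had to be assigned between related genes, so the longest exact runs shared by the annotated transcripts (GENCODE, GRCm38) of related genes are shown, in lower case throughout and in the sense of transcription. They show how far the Gli genes can be told apart.
Gli2 and Gli3: aagaaggagttcgtgtgccgctggc
Gli1 and Gli2: gagaagccacacaagtgcacgtt
Gli1 and Gli3: aaacacgtgaagac
These runs were 25, 23 and 14 bases long. Shh shared at most 17 bases with each of the other ligands, Ihh and Dhh. All of these runs were shorter than a read, so a read matching without mismatch belonged to a single gene of the pair.

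Ptch1 and Hhip are negative-feedback genes described as Gli targets. They varied together by Pearson r (0.920, adjusted p = 0.021 by exact permutation) but did not pass by Spearman rho (0.714, adjusted p = 0.23). Without anti-IL-17A/F mouse 4 the Pearson r did not pass either (0.789, adjusted p = 0.25). The promoter windows of Ptch1 and Hhip, 300 bases around a start listed for each gene (GRCm38.p6), are shown. Each GC box (GGGCGG or its reverse complement CCGCCC) is in capitals. The Ptch1 window lies at chr13:63565686-63565985 on the minus strand and that of Hhip at chr8:80057959-80058258 on the minus strand. In RefSeq Ptch1 spans 63508328 to 63573460, so its window lies inside the gene. The sequence at the outermost Ptch1 start is not shown and was not searched.
Ptch1: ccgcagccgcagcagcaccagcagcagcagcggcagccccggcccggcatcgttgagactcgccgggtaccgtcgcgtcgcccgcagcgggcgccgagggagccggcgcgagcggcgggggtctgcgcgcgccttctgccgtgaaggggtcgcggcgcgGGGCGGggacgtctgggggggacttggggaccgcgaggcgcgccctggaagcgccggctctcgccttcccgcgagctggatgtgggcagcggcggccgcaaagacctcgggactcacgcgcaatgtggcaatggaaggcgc
Hhip: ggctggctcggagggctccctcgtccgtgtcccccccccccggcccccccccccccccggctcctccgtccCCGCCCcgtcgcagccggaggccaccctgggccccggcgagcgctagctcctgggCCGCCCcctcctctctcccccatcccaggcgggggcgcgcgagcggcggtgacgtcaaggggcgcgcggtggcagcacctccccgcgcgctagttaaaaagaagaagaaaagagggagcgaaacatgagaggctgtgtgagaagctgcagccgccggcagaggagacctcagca
GC content was 76.3% for Ptch1 and 73.7% for Hhip. The promoter table held 6 of the 8 members, Gli1 and Shh not being among them. The Gli motif GACCACCCA was searched on both strands and matched none of the 6 windows, against 0.253% of 32851 promoters. A GC box was found in 35.7% of all promoters, once in the Ptch1 window and at 2 places in the Hhip window. Such matches describe letters only, and a window without the motif says nothing of binding elsewhere.

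Shh, the only ligand measured above the low-count filter, was among the least abundant members. In the control mice 1 to 4 it stood at 1.74, 0.867, 2.31 and 0.567 CPM, and in the anti-IL-17A/F mice 1 to 4 at 2.00, 1.46, 4.69 and 6.31 CPM. Anti-IL-17A/F mice 3 and 4 lay above every control, whereas the other two lay among the controls. The means were 1.37 ± 0.801 and 3.62 ± 2.28 CPM (SD, n = 4 each), from 29 to 326 counts per mouse. This is a log2 fold change of 1.40 (SE 0.55), with an edgeR unadjusted p of 0.0311 and an adjusted p of 0.984. Exons of Shh overlap genes on the opposite strand over 28.3% of their length, which matters where counting ignores strand. The overlapping 9530036O11Rik was at 0.0193 to 0.139 CPM. For Gm26894, which also overlaps, no value was available. The remaining ligands were near the floor, Ihh with 4 to 12 and Dhh with 2 to 17 counts per mouse.

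Ptch1, the receptor, was read at 82.7, 47.8, 62.2 and 48.0 CPM in the control mice and at 54.8, 57.7, 86.4 and 134 CPM in the anti-IL-17A/F mice. Control mouse 1 reached almost the level of anti-IL-17A/F mouse 3, and the groups overlapped. Means were 60.2 ± 16.5 and 83.3 ± 36.9 CPM (SD, n = 4 each), a log2 fold change of 0.47 (SE 0.30) that did not pass (edgeR unadjusted p = 0.149, adjusted p = 0.984). Without anti-IL-17A/F mouse 4 it was 0.14.

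Hhip, which binds and sequesters ligand at the cell surface, was the scarcest member per length. Control mice stood at 2.65, 1.12, 2.12 and 0.919 CPM, and anti-IL-17A/F mice at 0.773, 0.884, 1.92 and 7.22 CPM. A single animal, anti-IL-17A/F mouse 4, lay above all controls, and the other 3 lay within or below the control range. The means of 1.70 ± 0.824 and 2.70 ± 3.06 CPM (SD, n = 4 each) gave a log2 fold change of 0.67 (SE 0.70, edgeR unadjusted p = 0.365, adjusted p = 0.984). Leaving that mouse out turned it to -0.51.

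Smo, the transducer, was the most even member. Its level was 97.9, 98.0, 106 and 104 CPM in the control mice and 99.3, 101, 98.6 and 110 CPM in the anti-IL-17A/F mice. Sufu, the cytoplasmic inhibitor of Gli proteins, stood at 17.8, 17.4, 17.9 and 17.4 CPM in the controls and at 16.1, 16.5, 17.5 and 18.8 CPM under anti-IL-17A/F. Both genes stayed within a narrow band in every mouse, with a highest value 1.13 times the lowest for Smo and 1.17 times for Sufu. Log2 fold changes were 0.013 (SE 0.051) for Smo and -0.036 (SE 0.063) for Sufu, with edgeR adjusted p of 0.992 and 0.984.

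Gli1, the factor that is itself induced by the pathway, was at 45.3, 20.04, 31.1 and 17.1 CPM in the control mice and at 25.3, 32.9, 51.0 and 70.5 CPM in the anti-IL-17A/F mice. Anti-IL-17A/F mice 3 and 4 exceeded every control, and control mouse 1 exceeded the remaining anti-IL-17A/F mice. The means of 28.4 ± 12.8 and 44.9 ± 20.2 CPM (SD, n = 4 each) correspond to a log2 fold change of 0.66 (SE 0.38, edgeR unadjusted p = 0.111, adjusted p = 0.984), or 0.36 without anti-IL-17A/F mouse 4. Opposite-strand genes cover 6.55% of its exons, among them Arhgap9, which was at 4.02 to 6.42 CPM.

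Gli2, the main activating factor, was read at 33.1, 18.6, 20.6 and 15.5 CPM in the control mice and at 27.96, 35.7, 27.9 and 41.5 CPM in the anti-IL-17A/F mice. Control mice 2, 3 and 4 lay below every anti-IL-17A/F mouse, and control mouse 1 did not. The means were 21.96 ± 7.71 and 33.3 ± 6.61 CPM (SD, n = 4 each). Its log2 fold change of 0.60 (SE 0.23) had an edgeR unadjusted p of 0.0285 and an adjusted p of 0.984.

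Gli3, which acts chiefly as a repressor, stood at 28.5, 23.1, 28.9 and 31.9 CPM in the controls and at 29.8, 31.7, 23.3 and 33.1 CPM under anti-IL-17A/F. The groups overlapped almost fully, and the log2 fold change was 0.068 (SE 0.13, edgeR adjusted p = 0.984). The ratio of Gli2 to Gli3 in CPM ranged from 0.487 in control mouse 4 to 1.26 in anti-IL-17A/F mouse 4. The groups overlapped, with control mouse 1 (1.16) above anti-IL-17A/F mice 1 (0.938) and 2 (1.13).

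**Figure D1:**
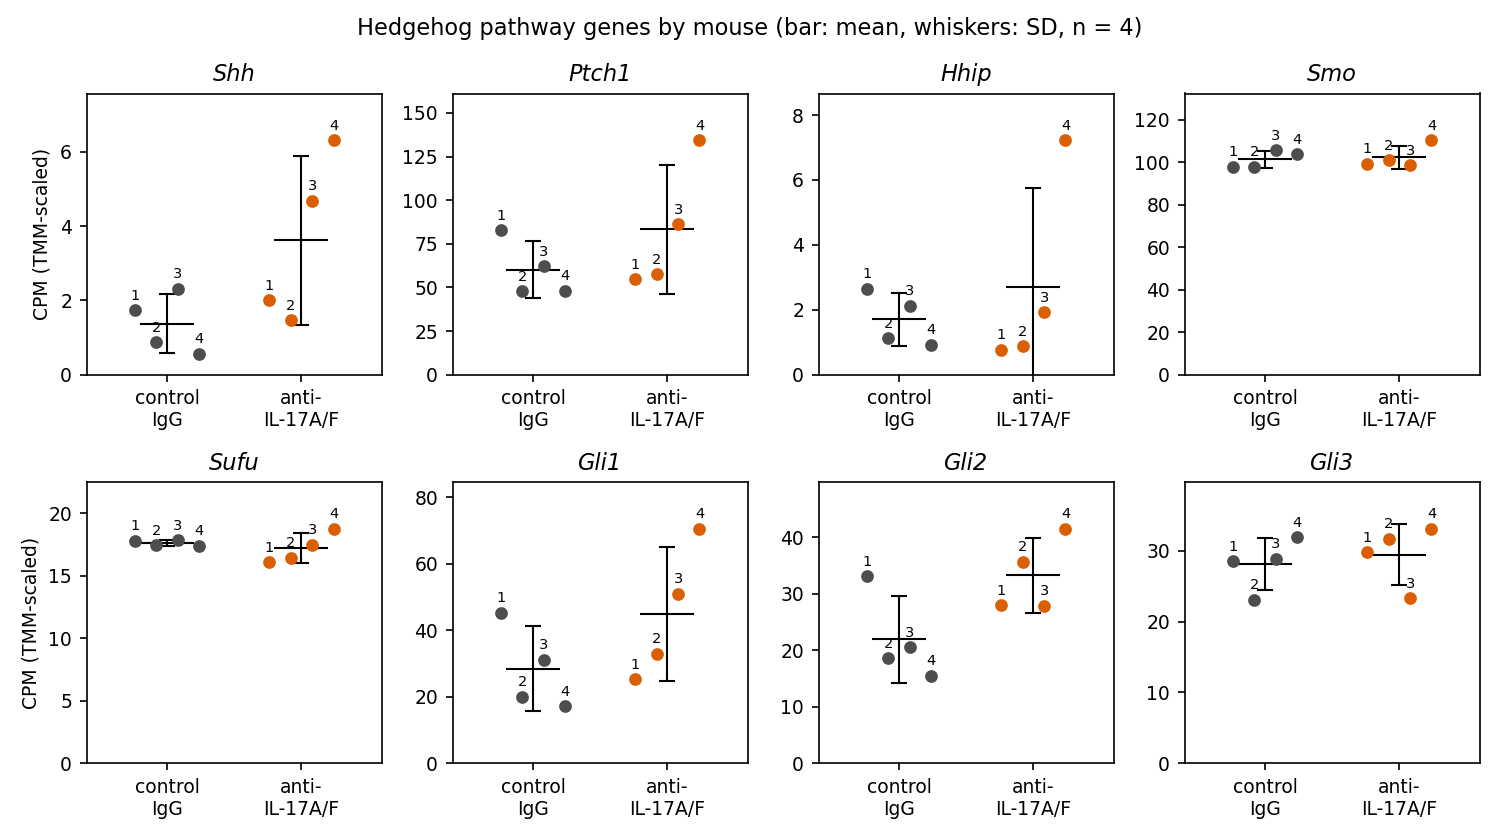
Level of each member in CPM (linear axes from 0) in the 4 control IgG and 4 anti-IL-17A/F mice, numbered within their group, with bars at the mean and whiskers at the SD (the lower Hhip whisker is cut at 0). Anti-IL-17A/F mouse 4 holds the highest value in all 8 panels, while Smo and Sufu hardly vary.

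Across the 8 members, 0 were called at an adjusted p below 0.1, against 0% of all 16335 genes tested. An unadjusted p under 0.05 was seen for 2 of 8 (Shh and Gli2), against 4.03% of all genes. None of the 8 separated the groups without overlap, against 2.42% of all genes. The log2 fold change was above 0 for 7 of 8 members, against 50.1% of all genes, and the median over members was 0.53 beside 8.7e-05 over all genes. All 8 members were highest in anti-IL-17A/F mouse 4, the mouse that held the highest value for 17.04% of 15530 genes with a symbol. Without this mouse 5 of 8 members were above 0, the median was 0.073 and none had an unadjusted p under 0.05. The same mouse was highest for all 6 melanocyte markers (summed 124 CPM, at most 72.8 in any other mouse) and all 6 proliferation markers (491 against at most 313 CPM). Summed fibroblast (42.9 against at most 37.1 CPM), hair matrix and shaft (121 against at most 90.3 CPM) and endothelial markers (12.8 against at most 10.05 CPM) were also highest there, as were 3 of 7, 4 of 6 and 4 of 7 of their genes. Of the inner root sheath markers, 5 of 6 were highest in this mouse, but their sum was not. The same held for 5 of 9 dermal papilla markers, which summed to 29.7 CPM there against 32.3 CPM in control mouse 3. Other follicle sums were not highest there either, with 1 gene of each list highest. Hair germ markers summed to 227 CPM, against 231 in anti-IL-17A/F mouse 2. Upper follicle markers summed to 2722 CPM, against 3091 in control mouse 1. Hair follicle stem cell markers summed to 5233 CPM, against 7278 in control mouse 4. The part of these cells in the Hedgehog values was not tested.

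Per kilobase of exon (RPKM), the mean over 8 mice placed Smo first at 18.1, followed by Gli1 at 7.34, Ptch1 at 5.06, Gli2 at 4.02, Gli3 at 3.00, Sufu at 2.26, Shh at 0.876 and Hhip at 0.243. Only Smo and Gli1 had ranges that did not overlap, with a lowest Smo level of 17.4 RPKM and a highest Gli1 level of 14.1 RPKM. All other neighbors in this order overlapped over the 8 mice. With the longest transcript as gene length, Sufu stood ahead of Gli3.

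**Figure D2:**
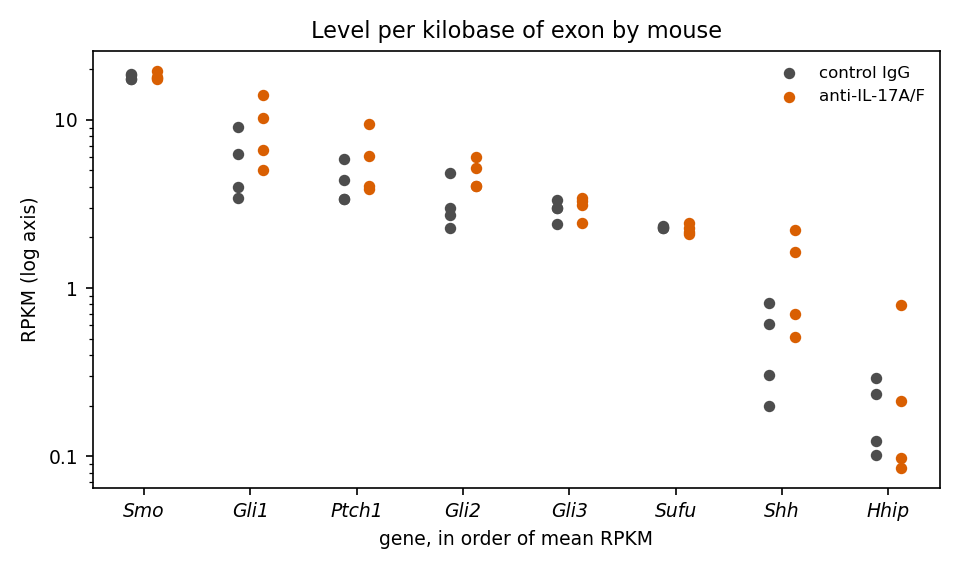
Level per kilobase of exon (RPKM, log axis) of each member in each mouse, in order of the mean, with control IgG in grey and anti-IL-17A/F in orange. Smo is set apart at 17.4 to 19.6 RPKM, and Shh and Hhip show the widest spread.

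Co-variation over the 8 mice was measured as Pearson r of log2 CPM, with Spearman rho and an exact two-sided permutation test, adjusted over the 28 pairs of members. Gli1 and Ptch1 followed each other most closely (r = 0.961, exact p = 9.9e-05, adjusted p = 0.0028; rho = 0.952, exact p = 0.0011, adjusted p = 0.016). Without the 2 mice farthest from the Ptch1 median r was 0.943, and within the groups it was 0.955. Leaving out each mouse in turn gave 0.954 to 0.976. The ratio of Gli1 to Ptch1 in CPM thus spanned only 1.66-fold over mice in which Gli1 itself spanned 4.12-fold.

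Of the 28 pairs, 7 had an adjusted p below 0.1 by Pearson r and 2 by Spearman rho, and all 28 Pearson coefficients were above 0 (26 of 28 by Spearman rho). The share of such pairs among other genes was not computed, so these counts are not shown to be particular to the members. Among 13456 genes averaging at least 1 CPM, 94 had r above 0.9 with Gli1 and 153 with Ptch1. Without anti-IL-17A/F mouse 4, 11 of the 28 Pearson coefficients were below 0, as low as -0.48 for Smo and Gli2, and without control mouse 2 there were 3. Ptch1 and Hhip, receptor and ligand trap, had r = 0.920 (exact p = 0.0037, adjusted p = 0.021) and rho = 0.714 (exact p = 0.058, adjusted p = 0.23), and r = 0.797 without the 2 farthest mice. Shh and Gli1 gave r = 0.908 (exact p = 0.0027, adjusted p = 0.019) and rho = 0.810 (exact p = 0.022, adjusted p = 0.13), and r = 0.753 without the 2 farthest mice. For Shh and Ptch1 the values were r = 0.872 (exact p = 0.0026, adjusted p = 0.019) and rho = 0.857 (exact p = 0.011, adjusted p = 0.1), and r = 0.751 without the 2 farthest mice. In these 3 pairs, as in all 28, anti-IL-17A/F mouse 4 held the highest value of both genes. Hhip and Sufu had r = 0.877 (exact p = 0.0013, adjusted p = 0.018) and rho = 0.976 (exact p = 0.0004, adjusted p = 0.011), and r = 0.745 without the 2 farthest mice. In the columns labeled batch 1 alone this pair had r = 0.646 (exact p = 0.081, adjusted p = 0.21) and did not pass. Gli1 and Gli2 showed r = 0.834 (exact p = 0.012, adjusted p = 0.049) and rho = 0.786 (exact p = 0.028, adjusted p = 0.13), and r = 0.595 without the 2 farthest mice. For Gli1 and Hhip these were r = 0.833 (exact p = 0.0095, adjusted p = 0.045) and rho = 0.643 (exact p = 0.096, adjusted p = 0.27), and r = 0.663 without the 2 farthest mice. Without anti-IL-17A/F mouse 4, only 1 pair, Gli1 and Ptch1, kept an adjusted p below 0.1. Within the groups, 10 pairs had an adjusted p below 0.1. Gli1 and Gli2 were not among them (r = 0.776, exact p = 0.042, adjusted p = 0.11), while Sufu with Ptch1 (r = 0.915), Gli1 (0.816) and Shh (0.791), and Shh with Hhip (0.874), were. With the groups pooled and anti-IL-17A/F mouse 4 left out, the same pairs had, in this order, r = 0.351, 0.199, 0.014 and 0.511. Sufu itself spanned only 1.17-fold over the mice, a range in which counting error is not small. Gli3 did not pass with Gli1 (r = 0.093, exact p = 0.82, adjusted p = 0.89; rho = 0.095, exact p = 0.84, adjusted p = 0.9), and Shh with Gli3 had r = 0.0037. Its highest coefficient was with Smo (r = 0.654, exact p = 0.076, adjusted p = 0.19; rho = 0.786, exact p = 0.028, adjusted p = 0.13).

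**Figure D3:**
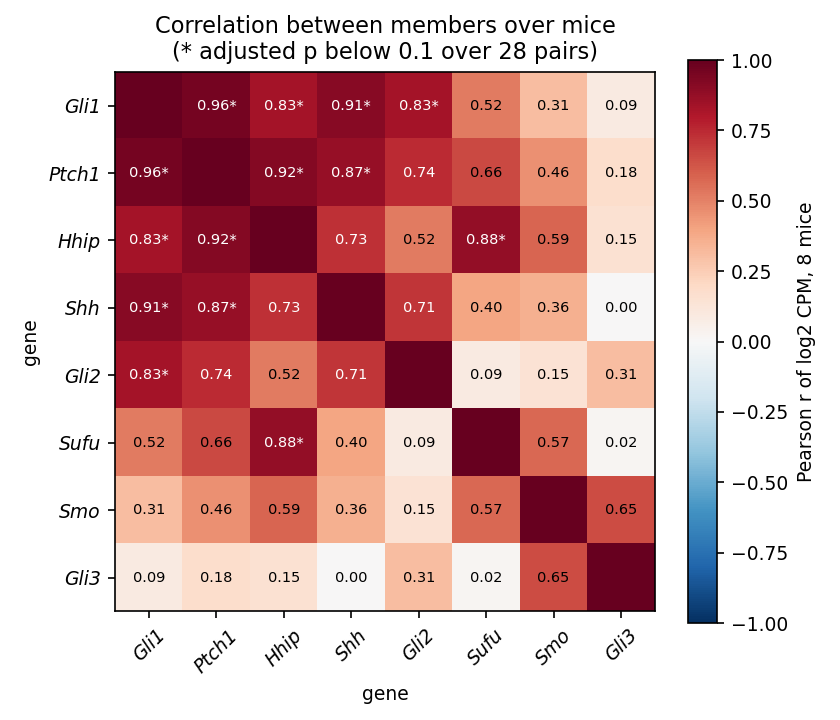
Pearson r of log2 CPM over 8 mice for each pair of members (color scale from -1 to 1), with an asterisk at an adjusted p below 0.1 over 28 pairs. The order of the genes was set by hand, with Gli1, Ptch1, Hhip, Shh and Gli2 at the upper left. Among these, Gli2 with Ptch1, Hhip and Shh, and Shh with Hhip, did not pass. Outside them Hhip with Sufu did. Gli3 and Smo each had their highest coefficient with the other (r = 0.654, adjusted p = 0.19 by exact permutation).

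The genes whose pattern was most like that of Gli1 were sought among 13456 genes averaging at least 1 CPM. This is a description over 8 mice, and all genes of a mouse share its library and depth. Among the 5 closest were E2f3 (r = 0.992), a transcription factor of the cell cycle, Abat (0.976), which breaks down the transmitter GABA, Cntfr (0.973), the receptor of ciliary neurotrophic factor, and Col5a1 (0.970), a fibrillar collagen chain. Mycn, a proto-oncogene among described Gli targets, ranked 9 (0.965) and Ptch1 ranked 16. Most like Ptch1 were Chst11 (0.988), a chondroitin sulfotransferase, Crispld1 (0.986), Col5a1 (0.983), Itpk1 (0.979), an inositol phosphate kinase, and Col4a1 (0.976), a basement membrane collagen chain. All of these genes were highest in anti-IL-17A/F mouse 4. Without it Ptch1 ranked 5 for Gli1 (r = 0.963), and 2 of the 5 closest genes of Gli1 and 3 of the 5 of Ptch1 were the same.

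**Figure D4:**
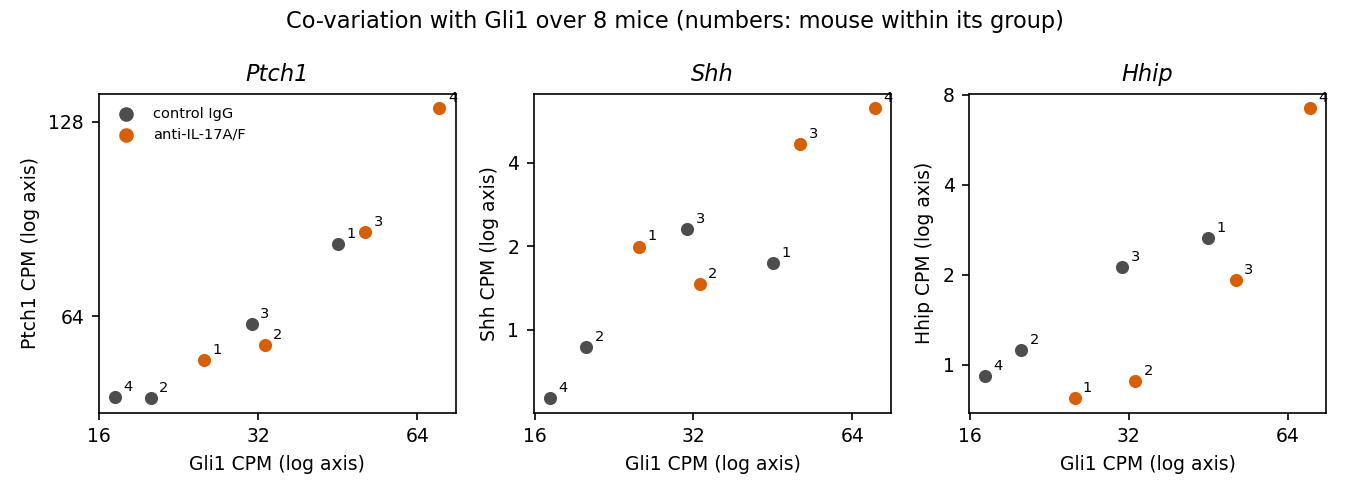
Level of Ptch1, Shh and Hhip against that of Gli1 (CPM, both axes logarithmic) in 8 mice, numbered within their group, control IgG in grey and anti-IL-17A/F in orange. Ptch1 tracks Gli1 through both groups, whereas Hhip is more scattered below 3 CPM.

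Other pathway genes were taken from lists fixed by name. Among genes of ligand processing and release, 5 of 8 passed the filter, 3 with a log2 fold change above 0 and 2 below, and the median was 0.15. Scube3, a secreted protein of the family that helps release ligand, stood at 5.96, 3.28, 3.92 and 2.29 CPM in the controls and at 5.64, 5.25, 7.20 and 12.3 CPM under anti-IL-17A/F. Only control mouse 1 reached the anti-IL-17A/F range, and the log2 fold change was 0.98 (SE 0.34, edgeR unadjusted p = 0.019, adjusted p = 0.984), or 0.64 without anti-IL-17A/F mouse 4. Scube1, of the same family, had 0.66 (SE 0.63), which turned to -0.45 without anti-IL-17A/F mouse 4. Disp1, the transporter that frees lipid-modified ligand, had -0.12 (SE 0.068).

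Of the receptors and co-receptors, 6 of 7 were measured, 3 above and 3 below 0, with a median of 0.050. The co-receptors Boc and Gas1 had 0.22 (SE 0.11) and 0.10 (SE 0.13). Boc was at 0.14 without anti-IL-17A/F mouse 2, and Gas1 was at 0.24 when control mouse 4 was left out. Leaving out anti-IL-17A/F mouse 1, control mouse 2 or control mouse 3 put Gas1 at 0.032, 0.035 and 0.067. Gas1 overlaps an opposite-strand gene over 19.9% of its exons.

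All 20 cilium and cytoplasmic regulators were measured, 15 above and 5 below 0, with a median of 0.039. Ift88, a protein of the transport machinery that builds cilia, stood at 17.6, 17.2, 17.1 and 16.5 CPM in the controls and at 19.1, 18.6, 18.7 and 21.0 CPM under anti-IL-17A/F. Its groups did not overlap, as for 1 of 37 measured genes of the 4 pathway lists (2.70%), a share near the 2.42% of all genes. Its log2 fold change was small, 0.18 (SE 0.059, edgeR unadjusted p = 0.015, adjusted p = 0.984). Tulp3, which brings receptors into the cilium, also had 0.18 (SE 0.063, edgeR unadjusted p = 0.018, adjusted p = 0.984). Kif7, a kinesin at the cilium tip, had 0.35 (SE 0.16) or 0.18 when anti-IL-17A/F mouse 4 was left out, and opposite-strand genes cover 20.3% of its exons.

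Of the described Gli target genes, 6 of 10 were measured, 4 above and 2 below 0, with a median of 0.13. Mycn had 14.1, 7.36, 12.0 and 4.65 CPM in the controls and 10.01, 12.4, 17.5 and 22.3 CPM under anti-IL-17A/F, a log2 fold change of 0.71 (SE 0.36, edgeR unadjusted p = 0.079, adjusted p = 0.984). Foxm1, a factor of cell division, had 0.26 (SE 0.33), which turned to -0.11 without anti-IL-17A/F mouse 4 and to -0.0046 with limma-voom. It was 0.11 without control mouse 2, and 0.40 and 0.45 without anti-IL-17A/F mice 1 and 2. Ccnd1, a cyclin whose exons are overlapped on the opposite strand over 23.4%, had 0.14 (SE 0.13), with 0.053 and 0.21 without anti-IL-17A/F mice 4 and 2, and 0.087 and 0.27 without control mice 2 and 3. In each of the 4 lists 0 genes were called.

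**Figure D5:**
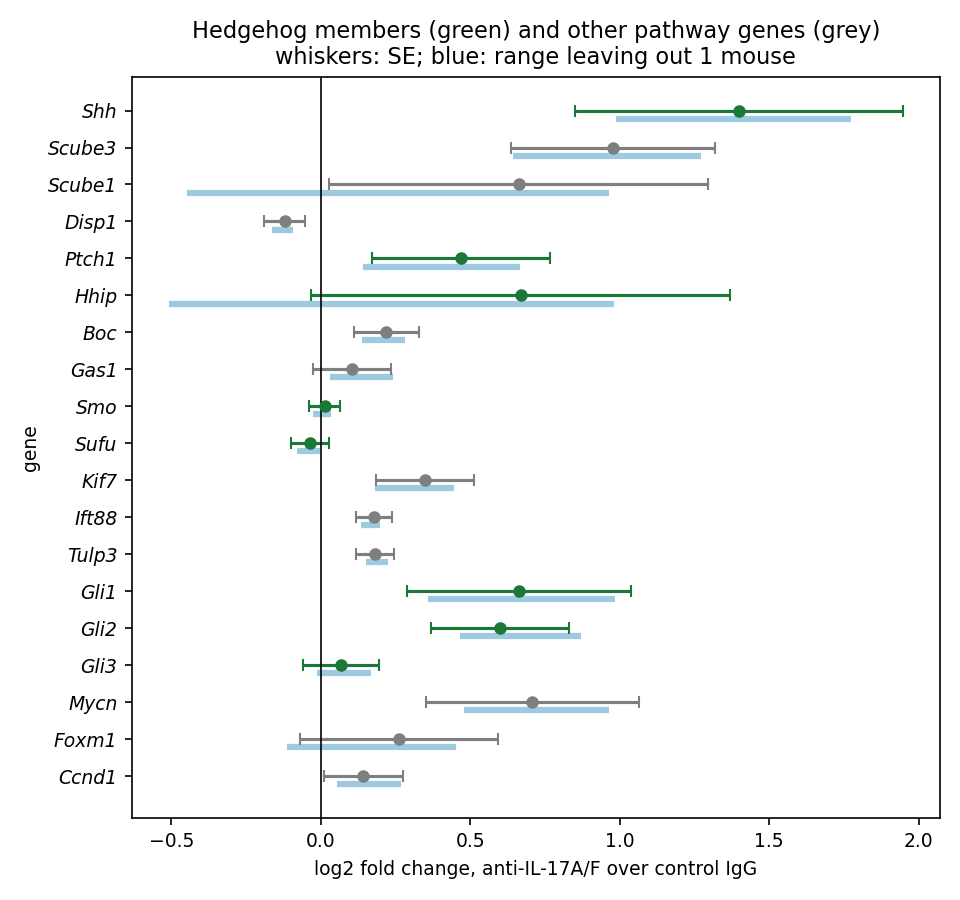
Log2 fold change of anti-IL-17A/F over control IgG for the members (green) and the named pathway genes (grey), with whiskers at the SE and blue bars spanning the values when each mouse is left out in turn. Hhip, Smo, Gli3, Scube1 and Foxm1 cross 0 among these values, down to -0.51 for Hhip, while Shh stays between 0.99 and 1.77.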

How the data were processed

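Poly(A) RNA of epidermal cells was sequenced single-end (stranded libraries, reads of 50 bases). The authors aligned reads to mm10 with STAR 2.5.2b and counted them with featureCounts and its built-in annotation, a read overlapping several genes counting for each and reads mapping to several places being left out. No source used here gives the strand setting. The table deposited holds unnormalized counts for Entrez genes, and 25275 of 27179 identifiers (98.0% of counts) matched a RefSeq symbol.

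Each mouse has 2 columns, labeled batch 1 and batch 2 under the same code and index, and the 16 columns were summed to 8 mice. They were taken as 2 sequencing runs of the same library, which the labels do not say. The 2 columns of a mouse differed by 0.998 to 1.05 in chi-square per gene, against 11.5 to 39.2 between mice of a group. Groups were compared in edgeR 4.0.16 (quasi-likelihood test, R 4.3.3) with TMM factors, the filterByExpr filter (minimum count 10) and Benjamini-Hochberg adjustment over all 16335 genes kept, called below 0.1, the level of the study. It was tested on simulated data. DESeq2 1.42.0 and limma-voom (limma 3.58.1) were alternatives. The test of the study was DESeq2 with experimental batch as covariate and a threshold on the fold change. The DESeq2 run here differed, with summed mice, no batch term and no fold threshold. Correlations used log2 CPM with a prior count of 2. RPKM used the union of exons in GENCODE (GRCm38), from which the overlaps with opposite-strand genes come. The replicate numbers did not pair the mice. Counting error is small except for low genes such as Shh (29 to 326 counts) and Hhip (38 to 373 counts), and reads carried no molecular identifiers. For Sufu (708 to 969 counts) counting error was also not small beside the spread between mice. The 899 counts of control mouse 1 have a 95% counting range of 841 to 960, whereas the 4 controls held 891 to 935.

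The members and lists were chosen with earlier results of these data known. Named were all members, in each pathway list the 3 measured genes with the smallest unadjusted p, and the 5 genes most like Gli1 and Ptch1. A gene that this rule takes is not reported here by name and is counted only within its list. The alternative without anti-IL-17A/F mouse 4 for the most similar genes, and the count of members above 0 without each mouse, were chosen after seeing the data.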

Additional observations from a re-analysis of the deposited data

How the results depend on the processing

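Under edgeR 0 of 16335 genes were called (658 at an unadjusted p under 0.05), as under limma-voom, whereas DESeq2 called 9. None of these were pathway genes: over all alternatives the lowest adjusted p of a member was 0.514 and of a pathway gene 0.635. Of 285 alternative values for the 19 named log2 fold changes, 275 kept their direction. With limma-voom Smo was at -0.016, Hhip at -0.22, Scube1 at -0.37 and Foxm1 at -0.0046. Without anti-IL-17A/F mouse 4 the values were -0.025 for Smo, -0.51 for Hhip, -0.45 for Scube1 and -0.11 for Foxm1. Without control mouse 2 they were -0.00023 for Smo and -0.013 for Gli3. The cause was not tested.

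Leaving out each mouse gave 0.36 to 0.99 for Gli1, 0.14 to 0.67 for Ptch1, 0.99 to 1.77 for Shh, 0.47 to 0.87 for Gli2 and 0.64 to 1.27 for Scube3, and 5 to 7 members above 0. The highest such values were 0.034 for Smo, 0.17 for Gli3, 0.98 for Hhip, 0.97 for Scube1 and 0.45 for Foxm1. The number of member pairs past the threshold was 1 to 9, lowest without anti-IL-17A/F mouse 4. Neighbors in the order of levels with separate ranges numbered 2 with the longest transcript as length, against 1.

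Control and anti-IL-17A/F mice with the same number did not deviate together (correlations -0.265, 0.250, 0.189 and -0.135). With a replicate block 0 genes were called, and the log2 fold change was 1.29 for Shh, 0.64 for Gli2, 0.66 for Gli1 and 0.13 for Hhip. With 4 mice per group, the precision is limited by the spread between mice, also for Shh and Hhip, whose counts are the lowest.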
